A study of Sus scrofa with 4 samples.

Results

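The heat shock, chaperonin and disulfide isomerase genes were followed in dermal fibroblasts grown from deep and shallow wounds of Duroc pigs. Members were the genes whose platform symbol begins with HSPA, HSPB, HSPD, HSPE, HSPH, HSP90, DNAJ or PDIA, or with CCT and a digit, together with TCP1, CALR, CANX and CRYAB. The rule used names only and found 57 genes on 97 probesets, among 6765 genes with a probeset of a single symbol. A gene was represented by its brightest probeset over the 4 arrays, and 54 members lay above the filter on dim probesets described below. By where their proteins work, 37 members were placed in the cytosol or nucleus, 13 in the endoplasmic reticulum (ER) and 6 in mitochondria, and HSPB11 was left without a compartment.

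The wounds were made on the backs of 2 Duroc pigs and biopsied 20 weeks later, and RNA came from confluent cultures of dermal cone fibroblasts in serum-containing medium. The deep group was 1 culture from a deep wound of each pig, and the shallow group was 1 culture from a shallow wound of each pig. The groups share breed, animals, time and culture conditions and differ in wound depth alone, as labelled. The titles pair the arrays by sample number, read here in the order listed. The cells had left the wound and grown on plastic, and the labels give no passage number and no culture of unwounded skin.

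Chaperones bind unfolded or partly folded proteins and release them for another attempt at folding. In the cytosol, HSP70 proteins take clients from J-domain partners (the DNAJ proteins), exchange nucleotide with the help of HSP110 proteins, and pass some clients to HSP90 or to the ring-shaped CCT chaperonin. Small heat shock proteins hold unfolding proteins in solution without using ATP. The ER has its own HSP70 and HSP90, the lectins calnexin and calreticulin, and disulfide isomerases that form and reshuffle disulfide bonds, all of which secreted collagens and proteoglycans pass on their way out. Mitochondria fold imported proteins with mtHSP70 and the HSP60 and HSP10 chaperonin.

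Values are MAS5 signals on a linear scale, in intensity units, and differences are deep minus shallow on the log2 scale with the standard error (SE) of limma's moderated fit. A probe's signal depends on its sequence, so levels are compared between arrays and not between genes. All 10 fibroblast markers with a named probeset were above the controls for absent transcripts on every array. Their summed signal was 70209 and 104322 in deep cultures, against 42939 and 51528 in shallow cultures, and for each of the 10 both deep arrays lay above both shallow arrays. The summed signal of 7 epithelial markers was 298 and 162 in the deep cultures of pigs 1 and 2, against 4274 and 192 in their shallow cultures. All 7 were above the absent controls on the pig 1 shallow array, and 2 or 3 on each of the other arrays. The ratio of 3' to 5' actin signal, which grows as RNA or labelling loses its 5' end, was 3.28 and 6.10 on the deep arrays and 1.96 and 2.41 on the shallow arrays. The 28S ribosomal RNA control read 4171 and 9146 in deep and 1401 and 1984 in shallow cultures, and the median hybridization control read 1005 and 2673 in deep and 767 and 827 in shallow cultures. These array measures and the fibroblast markers run with depth. Their part in the differences below was not tested beyond a fit with the actin ratio as covariate in place of the pig. Both deep arrays had a higher actin ratio than both shallow arrays, so that fit cannot cleanly separate depth from the ratio. Under it, 283 probesets had an unadjusted p under 0.05 (limma), against 1995 in the main fit. Its values below are therefore imprecise and are not differences corrected for RNA quality. In such cultures, fewer cells of a type and less RNA per cell cannot be told apart.

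No member passed an adjusted p of 0.05 between deep and shallow cultures (limma with the pig as block, 0 of 54, smallest adjusted p = 0.146 for HSPB6), where 0.340% of all 14399 probesets did. At an unadjusted p under 0.05 7 of the 54 members were lower in deep cultures (DNAJC9, HSPH1, HSPA14, HSPA4, HSPB1, DNAJB11 and PDIA4), against 6.92% of all probesets. Only HSPB6 was higher at that level, or 1.85% of members against 6.94% of all probesets. Both deep arrays were below both shallow arrays for 23 members, or 42.6%, against 25.5% of probesets, and above them for 6, or 11.1%, against 23.2%. The highest signal lay on the pig 1 shallow array for 31 members, or 57.4%, against 32.3% of probesets. That is the array with the epithelial signal, whose part in the differences was not tested. Without it, both deep arrays were below the remaining shallow array for 25 members, or 46.3%, against 38.1% of probesets, and above it for 12, or 22.2%, against 32.0%. Without the pig 2 shallow array, 6 members passed the adjusted threshold, or 11.1%, and 11.1% of all probesets did so too. They were DNAJC9, HSPA14, HSPA4, DNAJB11, CRYAB and HSPB6.

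The compartments had different medians. The 34 measured members of the cytosol and nucleus had a median difference of -0.19, with 24 lower and 10 higher in deep cultures. The 13 ER members had a median of 0.00, with 7 lower and 6 higher, and a range between -0.95 and 0.63. The 6 mitochondrial members had a median of -0.30, with 5 lower and 1 higher. Over all 14399 probesets tested the median was -0.02, with 7471 lower and 6928 higher. In pig 1 the medians were -0.38, -0.14 and -0.38 for cytosol, ER and mitochondria, and in pig 2 they were -0.11, -0.01 and -0.01. The lower cytosolic and mitochondrial medians thus came mostly from pig 1. Without the pig 1 shallow array they were -0.09 and -0.05, and that of the ER was 0.03. With the actin ratio as covariate the medians were -0.19 for cytosol, -0.10 for the ER and -0.07 for mitochondria. No test of the difference between compartments was made.

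**Figure D1:**
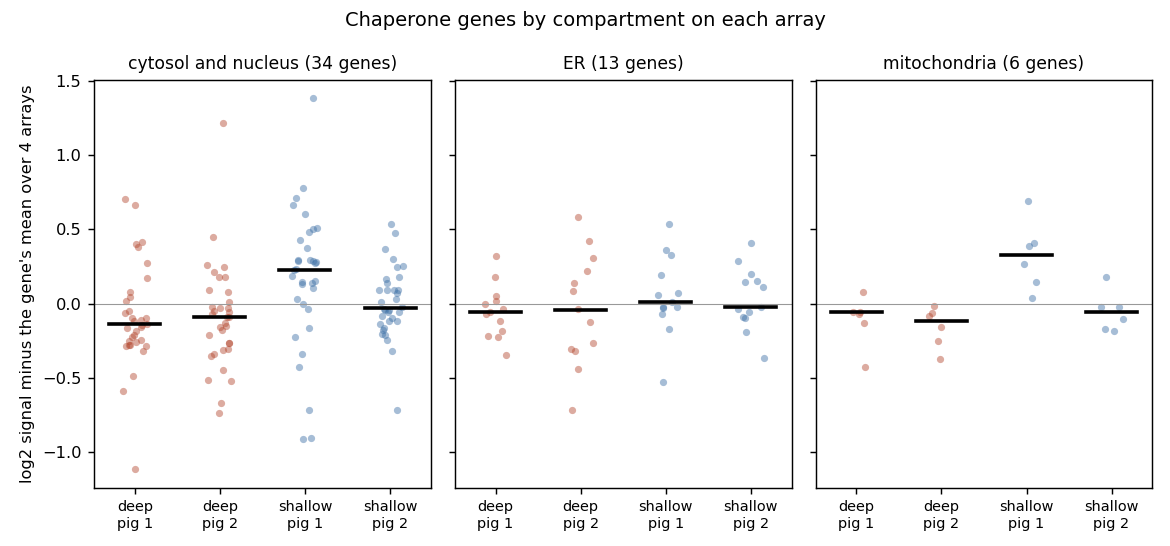
Log2 signal of each chaperone gene minus its own mean over the 4 arrays, by compartment and array; points are genes and black lines are medians. The cytosolic and mitochondrial medians stood at 0.23 and 0.33 on the pig 1 shallow array and between -0.14 and -0.03 on the other arrays, while the ER medians lay between -0.06 and 0.01 on all 4 arrays.

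**Figure D2:**
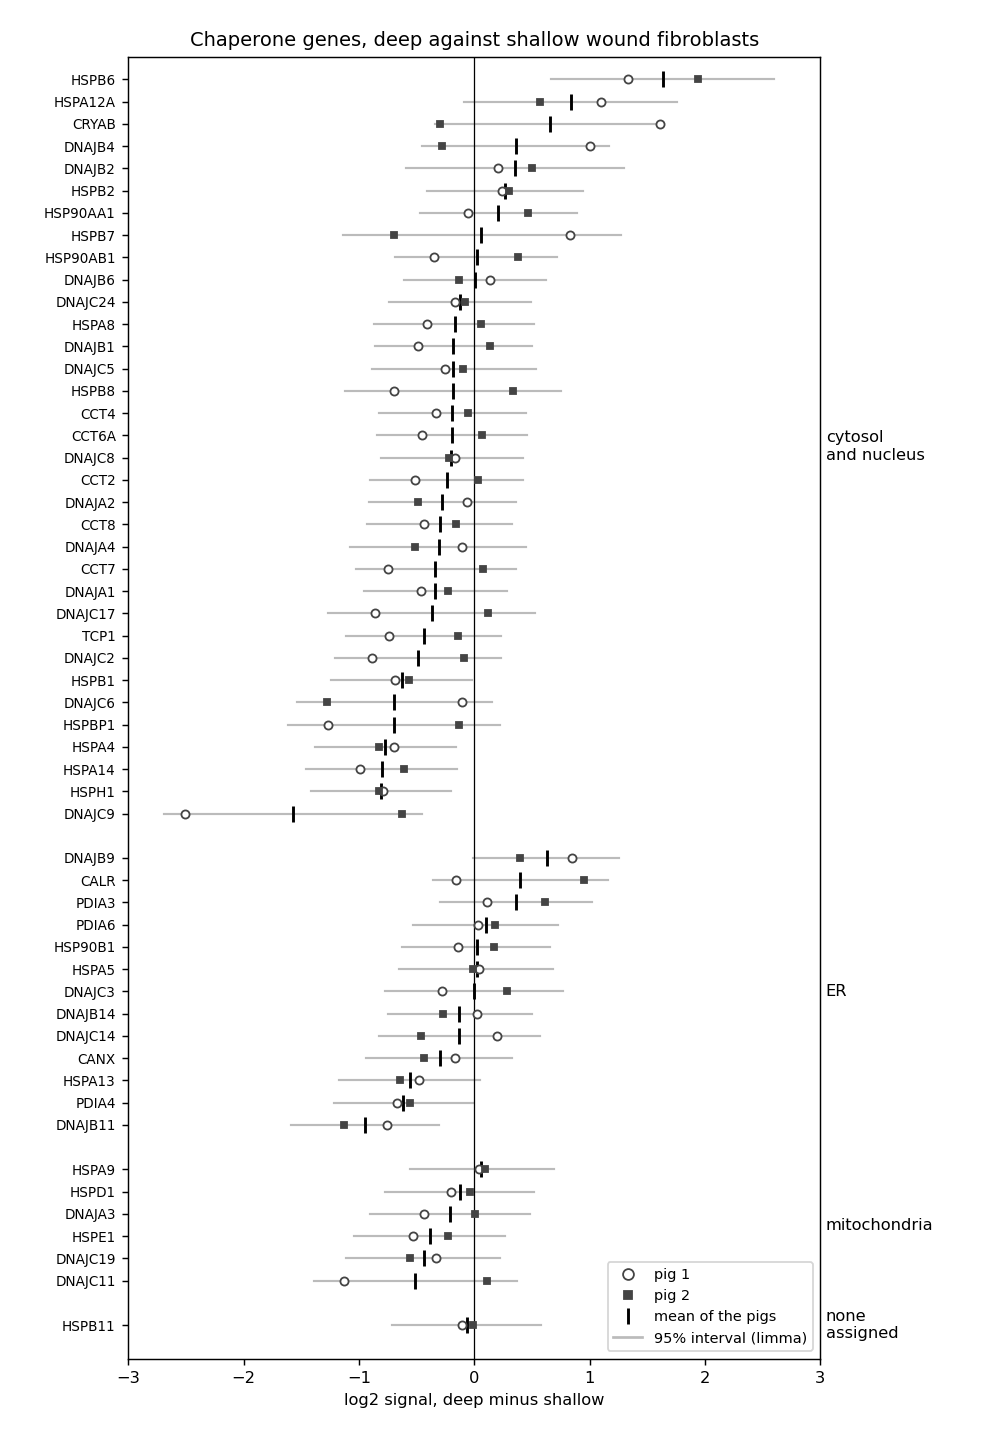
Deep minus shallow log2 signal of the 54 members past the filter, by compartment; circles are pig 1, squares pig 2, black ticks the mean of both and grey lines limma's 95% interval. Members with both pigs on the left, such as HSPH1, HSPA4 and DNAJB11, stand apart from those where the pigs disagree, such as CRYAB and DNAJB4.

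None of the cytosolic HSP70 proteins or their HSP110 relatives passed the test, and of the 8 HSP70 and HSP110 members past the filter in any compartment, 5 had a negative and 3 a positive difference. HSPH1, the HSP110 protein that helps HSP70 release its nucleotide, had signals of 1257 and 1065 in deep cultures (pig 1, then pig 2, here and throughout), against 2179 and 1892 in shallow cultures. Both deep values lay far below both shallow ones. The difference was -0.81 ± 0.26, or 1.75-fold lower in deep (SE, limma, adjusted p = 0.231). With any 1 array left out it ran between -0.93 and -0.69, and with the actin ratio as covariate it was -0.49. Where groups do not overlap, leaving out 1 array cannot change the sign, so such a range shows only the spread within groups. HSPA4, a second HSP110 relative brought in for its role after its values were seen, read 1040 and 699 in deep and 1692 and 1246 in shallow cultures. Again the groups did not overlap, and the difference was -0.77 ± 0.26 (limma, adjusted p = 0.249). It was -0.48 without the pig 2 deep array and -0.01 with the actin ratio as covariate. HSPBP1, an exchange factor of another fold also chosen by role, read 73.7 and 89.3 in deep and 178 and 97.8 in shallow cultures. Its difference of -0.70 was -0.27 without the pig 1 shallow array and -0.69 with the actin ratio as covariate.

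HSPA8, the constitutive cytosolic HSP70, read 6875 and 7190 in deep and 9150 and 6884 in shallow cultures. The groups overlapped, since only the pig 1 shallow array stood apart, and the difference was -0.17 with a 95% interval between -0.87 and 0.52. Under quantile normalization the HSPA8 difference was -0.73. HSP70.2, which the gene table lists with the older symbols HSPA1A and HSPA1B, falls outside the naming rule and was looked up for that reason. It read 4422 and 3554 in deep and 2791 and 3692 in shallow cultures, so the groups overlapped, with a difference of 0.30 ± 0.30 (limma, adjusted p = 0.715). HSPA12A, a divergent HSP70 relative, was among the few members higher in deep cultures, at 80.5 and 84.3 against 37.5 and 56.8 in shallow cultures. Its difference was 0.84 ± 0.40 (limma, adjusted p = 0.407), or 0.54 without the pig 1 shallow array and 1.14 without the pig 2 shallow array.

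HSPA14 and DNAJC2 form the complex that meets nascent chains at the ribosome. HSPA14 read 326 and 277 in deep and 649 and 423 in shallow cultures, with no overlap. Its difference was -0.80 ± 0.28, or 1.74-fold lower in deep (limma, adjusted p = 0.265), and -0.49 without the pig 1 shallow array. The actin covariate gave -0.34. DNAJC2, added as its partner, read 328 and 319 in deep and 608 and 339 in shallow cultures. The gap between groups was narrow and rested on pig 1, where the difference was -0.89, against -0.09 in pig 2.

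**Figure D3:**
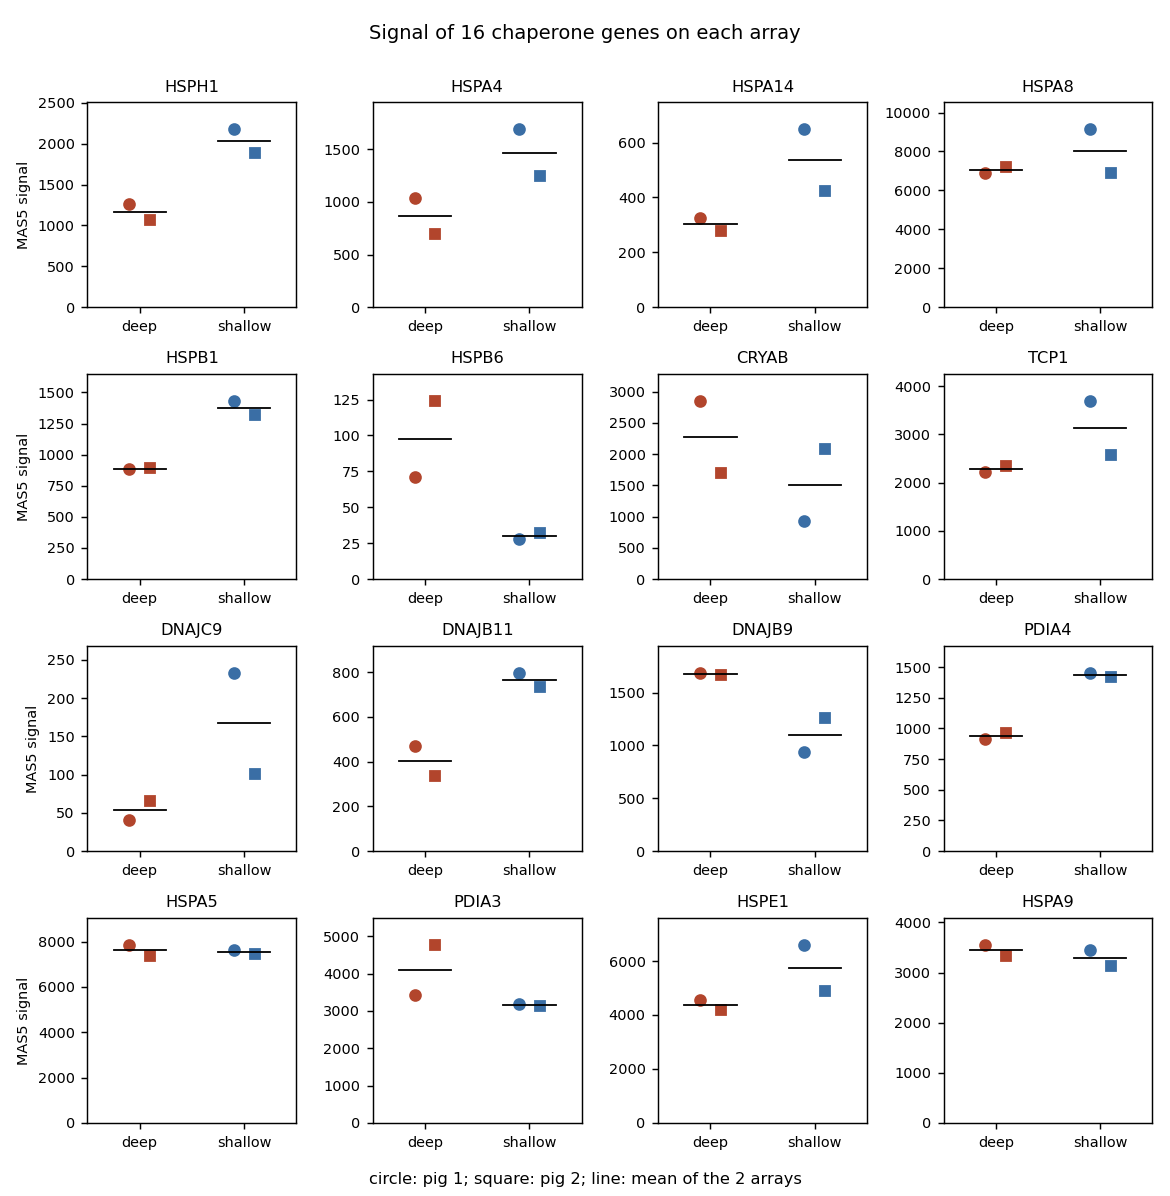
MAS5 signal of 16 chaperone genes on each array, with deep arrays left and shallow arrays right; circles are pig 1, squares pig 2 and lines the mean of the 2 arrays. HSPH1, HSPB1, DNAJB11 and PDIA4 show lower deep than shallow signals with no overlap, whereas in HSPA8, TCP1 and HSPE1 the pig 1 shallow array lies well above the other 3.

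The HSP90 genes had no clear direction. HSP90AA1, the stress-inducible cytosolic form, read 5405 and 6707 in deep and 5598 and 4840 in shallow cultures, and HSP90AB1, the constitutive form, read 4036 and 5094 in deep and 5126 and 3915 in shallow cultures. In both genes the groups overlapped. The differences were 0.21 (95% interval between -0.47 and 0.89) and 0.02 (between -0.69 and 0.72), and both turned negative under quantile normalization, at -0.12 and -0.28. The other probesets of HSP90AA1 did not settle its direction, with differences between -0.26 and 0.88 over 5 probesets.

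The small heat shock proteins split. HSPB6, known from smooth and striated muscle, read 71.0 and 124 in deep against 28.2 and 32.4 in shallow cultures, the largest difference upward of any member. Both deep arrays lay above both shallow arrays, and the difference was 1.64 ± 0.42, or 3.11-fold higher in deep (limma, adjusted p = 0.146). It ran between 1.23 and 2.04 with any 1 array left out. With the actin ratio as covariate it was 0.72. The HSPB6 shallow signals were close to the filter signal of 27.1. The highest absent control read 21.8 and 30.9 on deep and 14.8 and 13.6 on shallow arrays. Of 3 smooth muscle and pericyte markers, CNN1 read 193 and 154 in deep and 79.3 and 62.2 in shallow cultures. DES lay under the filter and read 25.6 and 55.9 in deep and 15.6 and 9.67 in shallow cultures, the last below the absent controls. RGS5 overlapped, at 187 and 218 in deep and 50.7 and 336 in shallow cultures. The part of these markers in the HSPB6 difference was not tested. A second, dimmer HSPB6 probeset below the filter read 9.83 and 11.7 in deep and 26.8 and 10.7 in shallow cultures, below the absent controls on all but the pig 1 shallow array.

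HSPB1, which caps and protects actin filaments besides holding clients, went the other way. It read 884 and 890 in deep and 1431 and 1317 in shallow cultures, with a gap wider than the spread within either group. The difference was -0.63 ± 0.26, or 1.55-fold lower in deep (limma, adjusted p = 0.346), and between -0.69 and -0.57 with any 1 array left out. The actin covariate left it at -0.60. CRYAB, the lens and muscle crystallin that also guards desmin and actin, read 2850 and 1693 in deep and 934 and 2080 in shallow cultures. The pigs opposed each other, with a difference of 1.61 in pig 1 and -0.30 in pig 2. The mean of 0.66 was 0.08 without the pig 1 shallow array and 1.04 with the actin ratio as covariate. HSPB2, a muscle form whose gene overlaps that of CRYAB in the reference annotation, read 246 and 289 in deep and 208 and 236 in shallow cultures, a difference of 0.27. HSPB8, which works with the cochaperone BAG3 in selective autophagy, read 69.2 and 89.3 in deep and 113 and 70.8 in shallow cultures, an overlap with a difference of -0.18. HSPB7, a heart and muscle form, differed by 0.83 in pig 1 and -0.70 in pig 2 and lay under the background controls on the pig 2 deep array.

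The CCT chaperonin, a ring of different subunits that folds actin and tubulin, was represented by 6 subunits, TCP1, CCT2, CCT4, CCT6A, CCT7 and CCT8. All 6 had a negative difference, between -0.44 and -0.19, with a median of -0.27, and none passed (limma, smallest unadjusted p = 0.165). In every subunit the pig 1 shallow array was the highest of the 4. TCP1 read 2212 and 2336 in deep and 3695 and 2576 in shallow cultures, and CCT2 read 2348 and 2660 in deep and 3334 and 2611 in shallow cultures. The deep values therefore lay near those of the pig 2 shallow array. Without the pig 1 shallow array the median over the subunits was -0.06, and TCP1 differed by -0.18 and CCT2 by -0.06. Quantile normalization gave a median of -0.38 and the actin ratio as covariate -0.24.

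J-domain proteins select clients for HSP70, and 14 of those measured work in the cytosol or nucleus. Of these 11 were lower and 3 higher in deep cultures, where 7471 of all 14399 probesets were lower. The median of the 14 was -0.24, or -0.17 without the pig 1 shallow array. DNAJC9, a nuclear protein that also escorts histones, had the largest difference downward of all members. It read 41.1 and 65.4 in deep and 233 and 101 in shallow cultures, so the groups did not overlap. The difference was -1.57 ± 0.49, or 2.97-fold lower in deep (limma, adjusted p = 0.215). It was -2.51 in pig 1 and -0.63 in pig 2, and -0.97 without the pig 1 shallow array. With the actin ratio as covariate it was -1.86. DNAJB1, the main stress-inducible partner of HSP70, read 377 and 475 in deep and 530 and 432 in shallow cultures, with overlap and a difference of -0.18 (95% interval between -0.86 and 0.50).

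The remaining cytosolic J-domain proteins differed by no more than 0.70 in size. DNAJA1 and DNAJA2, general partners of HSP70, differed by -0.34 and -0.28 without overlap between groups. DNAJC6, auxilin, which uncoats clathrin vesicles, read 203 and 118 in deep and 219 and 286 in shallow cultures, and its difference was -0.11 in pig 1 and -1.28 in pig 2. DNAJB4, which also acts on filamin and adhesion, read 2968 and 1513 in deep and 1479 and 1843 in shallow cultures, so that the pig 1 deep array alone stood out. DNAJB2 differed by 0.35, DNAJA4 by -0.31, DNAJC17, a spliceosome-linked protein, by -0.37, and DNAJC5, the synaptic vesicle protein CSP, by -0.18. DNAJC8, another splicing-associated protein, differed by -0.20, DNAJC24, which acts in diphthamide synthesis, by -0.12, and DNAJB6, which keeps aggregating proteins soluble, by 0.01.

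None of the 13 ER members passed the test, and their differences lay on both sides of 0. HSPA5 (BiP), the HSP70 of the ER, read 7863 and 7389 in deep and 7627 and 7458 in shallow cultures. The 4 values overlapped and the difference was 0.02, with a 95% interval between -0.65 and 0.68. HSP90B1 (GRP94), the ER form of HSP90, read 3337 and 3706 in deep and 3679 and 3287 in shallow cultures, a difference of 0.02 (between -0.63 and 0.66). PDIA6 read 3344 and 3789 in deep and 3277 and 3349 in shallow cultures, a difference of 0.10 (between -0.53 and 0.73). The values depended on scaling, since quantile normalization put HSPA5 at -0.53, HSP90B1 at -0.18 and PDIA6 at -0.07.

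The lectin system was mixed. PDIA3, the isomerase that works with calnexin and calreticulin on glycoproteins, read 3428 and 4775 in deep and 3175 and 3127 in shallow cultures. Both deep arrays lay above both shallow arrays, with a difference of 0.36 ± 0.29 (limma, adjusted p = 0.637) that was 0.12 without the pig 2 deep array and -0.13 with the actin ratio as covariate. CALR, calreticulin, read 871 and 1486 in deep and 971 and 769 in shallow cultures, and its difference of 0.40 was 0.01 without the pig 2 deep array. CANX, calnexin, read 3596 and 2839 in deep and 4052 and 3843 in shallow cultures. Its difference was -0.30 without overlap, but the 4 other CANX probesets past the filter differed by -0.10, -0.04, -0.03 and 0.05.

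Like CANX, DNAJB11, PDIA4 and HSPA13 had both deep arrays below both shallow arrays. These were 4 of the 13 ER members, or 30.8%, against 25.5% of all probesets. The 2 with both deep arrays above, PDIA3 and DNAJB9, were 15.4%, against 23.2% of all probesets. DNAJB11, the J-domain partner that hands unfolded clients to BiP, read 470 and 334 in deep and 797 and 732 in shallow cultures. The difference was -0.95 ± 0.28, or 1.93-fold lower in deep (limma, adjusted p = 0.190), between -1.19 and -0.70 with any 1 array left out. It was -0.39 with the actin ratio as covariate. PDIA4 (ERp72), a disulfide isomerase, read 911 and 962 in deep and 1453 and 1417 in shallow cultures, close within each group. Its difference was -0.62 ± 0.26 (limma, adjusted p = 0.355), between -0.66 and -0.58 with any 1 array left out. The actin covariate put it at -0.69. HSPA13, a truncated HSP70 of the ER lumen, read 1200 and 960 in deep and 1671 and 1493 in shallow cultures, with a difference of -0.56 ± 0.26 (limma, adjusted p = 0.404) that was -0.16 with the actin ratio as covariate.

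DNAJB9 (ERdj4), a BiP partner linked to ER-associated degradation, ran opposite to DNAJB11. It read 1686 and 1668 in deep and 937 and 1260 in shallow cultures, and no deep value overlapped a shallow one. The difference was 0.63 ± 0.27, or 1.54-fold higher in deep (limma, adjusted p = 0.365), and 0.41 without the pig 1 shallow array. It was 0.49 with the actin ratio as covariate. DNAJC3 (p58IPK), a BiP partner also known as an inhibitor of the kinase PERK, read 128 and 173 in deep and 155 and 143 in shallow cultures, a difference of 0.00 (95% interval between -0.77 and 0.77). DNAJB14 and DNAJC14, anchored in the ER membrane, both differed by -0.13.

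The mitochondrial chaperonin genes HSPD1 (HSP60) and HSPE1 (HSP10) lie next to each other in the reference annotation. HSPE1 read 4561 and 4181 in deep and 6603 and 4905 in shallow cultures, a difference of -0.38 ± 0.28 (limma, adjusted p = 0.606). HSPD1 read 4759 and 4721 in deep and 5467 and 4864 in shallow cultures, a difference of -0.12 ± 0.28 (limma, adjusted p = 0.889). In both genes the deep arrays were below the shallow arrays, by less in pig 2. Without the pig 1 shallow array the differences were -0.17 for HSPE1 and -0.04 for HSPD1. They were -0.70 and -0.41 under quantile normalization, and -0.10 and -0.05 with the actin ratio as covariate.

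HSPA9 (mortalin), the mitochondrial HSP70 that pulls proteins through the inner membrane, read 3555 and 3330 in deep and 3453 and 3138 in shallow cultures. The groups overlapped, with a difference of 0.06 (95% interval between -0.56 and 0.69) that was -0.12 under quantile normalization. A second, dimmer HSPA9 probeset read 1169 and 915 in deep and 1619 and 1393 in shallow cultures, a difference of -0.54, so the gene's direction depends on the probeset. DNAJA3, a partner of HSPA9 in the matrix, read 266 and 247 in deep and 361 and 245 in shallow cultures. DNAJC19, a J-like subunit of the import motor, read 270 and 218 in deep and 340 and 320 in shallow cultures, without overlap and with a difference of -0.44 ± 0.29 (limma, adjusted p = 0.547) that was -0.09 with the actin ratio as covariate. DNAJC11, associated with the cristae-shaping complex, read 126 and 160 in deep and 274 and 149 in shallow cultures. Its difference of -0.51 was -0.06 without the pig 1 shallow array and -0.57 with the actin ratio as covariate.

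HSPB11, named for its sequence but known as the ciliary transport protein IFT25, read 417 and 292 in deep and 450 and 294 in shallow cultures, a difference of -0.06. The members under the filter were HSPA2, HSPA6 and HSPB3. HSPA2, known from testis, read 10.9 and 26.8 in deep and 67.8 and 15.6 in shallow cultures, with both deep values below the absent controls. HSPA6, a strictly heat-inducible form in humans, read 24.1 and 5.61 in deep and 19.5 and 14.7 in shallow cultures. HSPB3, known from muscle, was below the absent controls on all 4 arrays.

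Probesets of the same gene gave a second look at 18 members with more than 1 past the filter. In 7 of them the probesets had differences of opposite sign, among them HSP90AA1, HSPA9, PDIA3 and CANX. For HSPA4 the 3 probesets differed by -0.91, -0.77 and -0.73, for HSPA13 the 2 probesets by -0.94 and -0.56, and for PDIA4 by -0.66 and -0.62. For DNAJB9 the 3 probesets differed by 0.63, 0.77 and 1.09. These 4 genes had the same direction by each of these probesets, although the dimmest of HSPA4 was below the absent controls on the pig 2 deep array. HSPH1, HSPB1, HSPA14, DNAJB11 and DNAJC9 had a single probeset, so their differences have no such check.

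**Figure D4:**
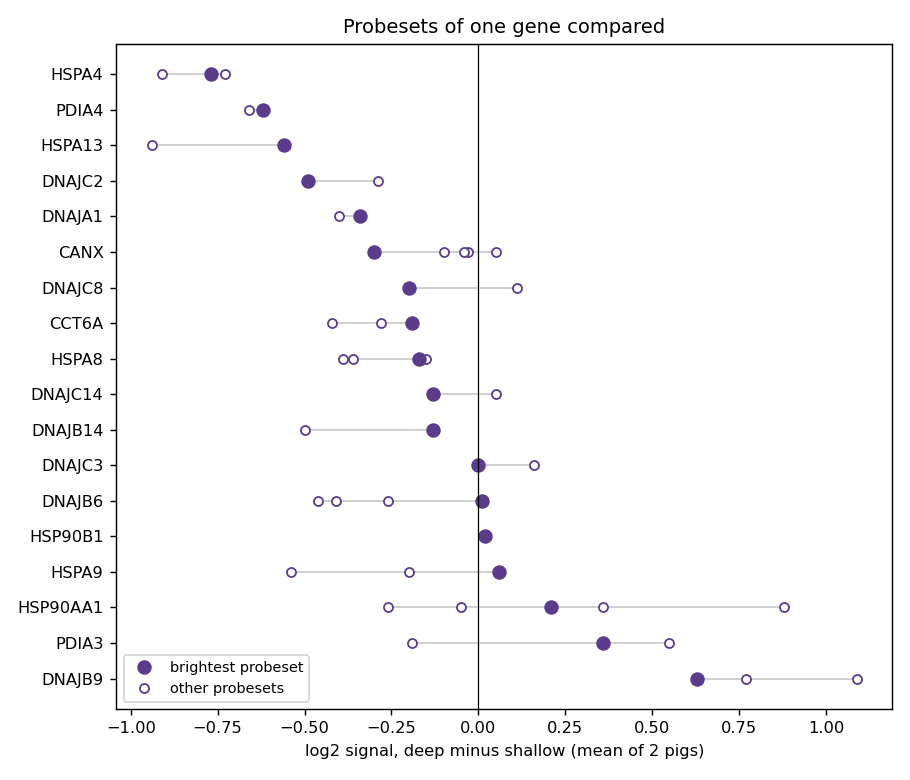
Deep minus shallow log2 signal by probeset for the 18 members with more than 1 probeset past the filter; filled points are the brightest probeset and open points the others. HSPA4, PDIA4 and HSPA13 stay left of 0 and DNAJB9 right of it, while HSP90AA1 spans -0.26 to 0.88.

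The partners of the chaperones were examined through 5 lists of other genes, in which 0 of 49 measured genes passed (limma, adjusted p of 0.05). At an unadjusted p under 0.05, 1 of the 49 was higher and 5 were lower in deep cultures, against 6.94% and 6.92% of all probesets. Of 15 heat shock factors and cochaperones of HSP70 or HSP90, the median difference was -0.11, and 5 had both deep arrays below both shallow arrays, where 25.5% of all probesets did. FKBP4, an immunophilin that escorts steroid receptors on HSP90, read 79.7 and 86.7 in deep and 368 and 123 in shallow cultures (-1.36 ± 0.44, limma, adjusted p = 0.232). PPID, the cyclophilin of the same complexes, read 442 and 393 in deep and 1017 and 539 in shallow cultures (-0.83 ± 0.30, limma, adjusted p = 0.276). STIP1, which links HSP70 to HSP90, and PTGES3, the cochaperone p23, each differed by -0.51. In these 4 genes the pig 1 shallow array was the highest. The heat shock factors HSF1 and HSF2 differed by -0.16 and -0.03. The BAG genes lay on both sides, at -0.31 for BAG1, -0.11 for BAG6, 0.04 for BAG5 and 0.20 for BAG3.

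The 7 prefoldin and chaperonin cofactor genes had a median of -0.18. The largest differences were -0.61 for PFDN6, -0.43 for PDCL3 and -0.38 for PFDN1. The 16 ER genes of folding, oxidation and collagen assembly had a median of -0.12, with 7 below and 3 above without overlap, against 25.5% and 23.2% of all probesets. FKBP10 (FKBP65), a collagen chaperone, read 2944 and 3526 in deep and 1643 and 1953 in shallow cultures (0.85 ± 0.27, limma, adjusted p = 0.223). HYOU1, the exchange factor of BiP, read 443 and 445 in deep and 761 and 635 in shallow cultures (-0.65 ± 0.27, limma, adjusted p = 0.350), and TMX3, a membrane-bound disulfide isomerase, differed by -0.67. SERPINH1 (HSP47), the collagen-specific chaperone, read 990 and 912 in deep and 874 and 874 in shallow cultures, a difference of 0.12. The 5 genes of ER-associated degradation had a median of 0.02, with the largest difference 0.55 for EDEM2, followed by UFD1 at -0.32 and VCP at -0.29.

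The 6 mitochondrial partners and proteases had a median of -0.48. CLPB, a disaggregase, read 120 and 107 in deep and 263 and 168 in shallow cultures (-0.89 ± 0.33, limma, adjusted p = 0.281), and GRPEL1, the exchange factor of mitochondrial HSP70, read 576 and 510 in deep and 902 and 717 in shallow cultures (-0.57 ± 0.27, limma, adjusted p = 0.400). TRAP1, the mitochondrial HSP90, ran the other way, at 492 and 520 in deep and 414 and 335 in shallow cultures, a difference of 0.44.

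**Figure D5:**
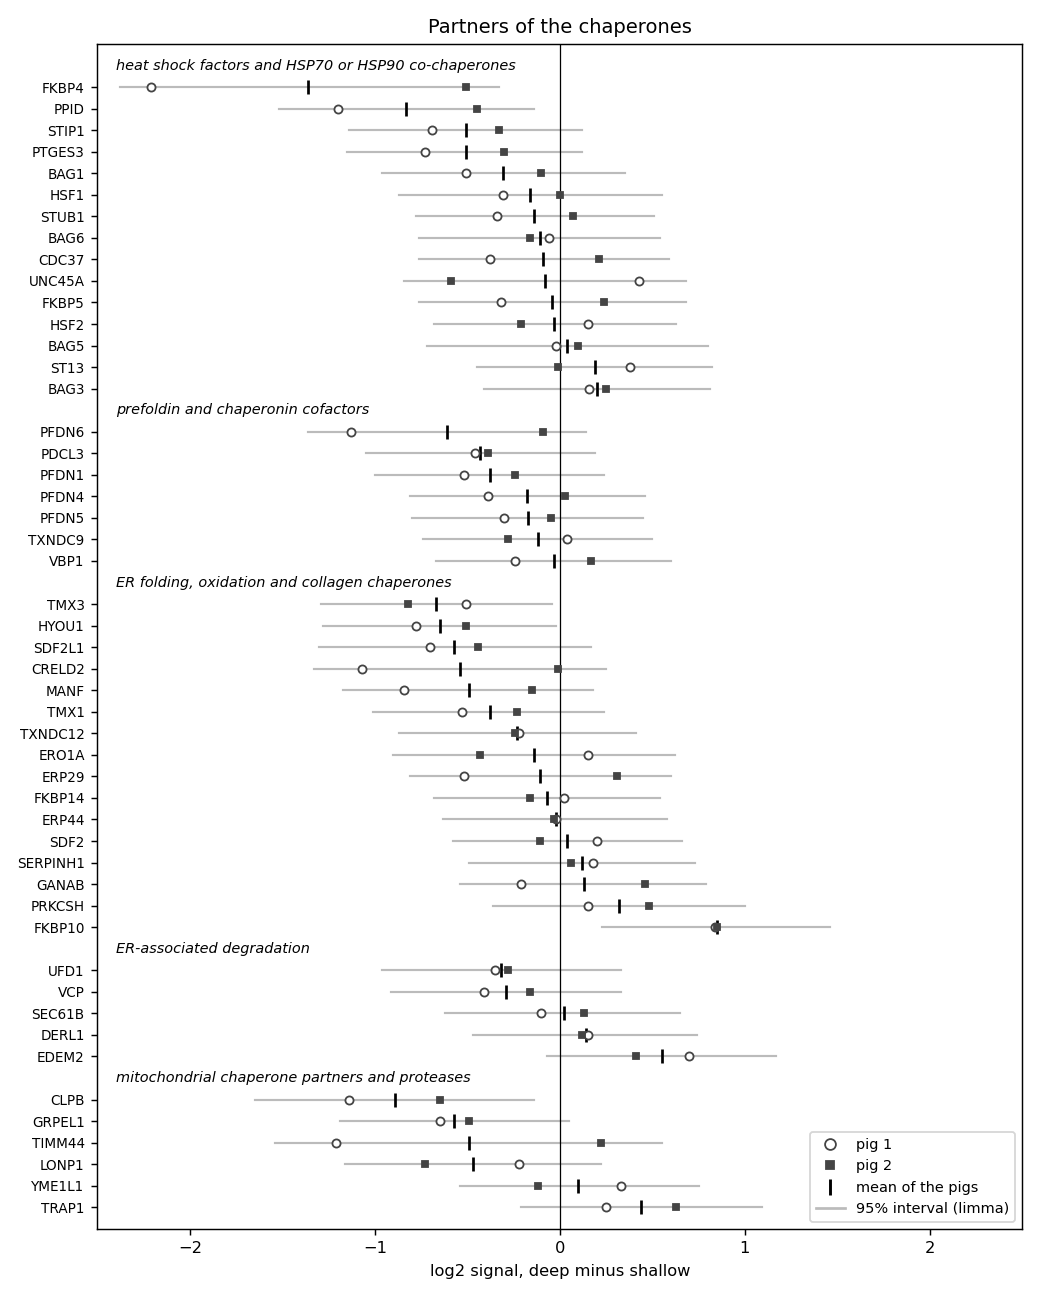
Deep minus shallow log2 signal of the 49 partner genes, by list; circles are pig 1, squares pig 2, ticks the mean of both and grey lines limma's 95% interval. FKBP4, PPID and CLPB lie left of 0 and FKBP10 right of it in both pigs, and most other intervals include 0.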

How the data were processed

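The authors deposited 1 linear signal intensity for each probeset on each array. The submitters' processing notes name MAS5 and GCOS 1.0, hence per the labels these are MAS5 signals. Each array had the same trimmed mean, 250.1. Detection calls were not used here, and arrays carry no read depth, so precision is limited by the number of arrays. Signals under 1 were set to 1. Apart from 124 controls there were 23999 probesets, and the 14399 whose average log2 signal reached the 40th percentile (a signal of 27.1) were tested. The highest of 23 controls for absent transcripts marked the background of each array, between 13.6 and 30.9.

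Genes were named by the platform annotation. Of the probesets, 10069 had a single symbol, 198 had several and 13732 had none. Of the 57 members, 56 were found in the current gene table, with no change of symbol.

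Deep and shallow arrays were compared by lmFit and eBayes of limma 3.58.1 under R 4.3.3. The pig was the block, eBayes used a trend on mean signal, and p-values were adjusted by Benjamini-Hochberg over the 14399 probesets. The fit leaves 1 residual degree of freedom, to which moderation adds 6.88. The pairing comes from the series' design, and same-pig deviations had a correlation of -0.01. With 1 culture per wound, p-values measure the spread between these arrays. The fit was checked on simulated data.

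Members and lists were chosen with earlier results of these data known, and compartments were assigned from textbook knowledge. Values on each array are given for the 5 members of each compartment with the largest difference and for a fixed set of main chaperones, and others were added by role. Alternatives were no block, crossed pairs, no filter, a floor of 16, quantile normalization, median centring, the actin ratio as covariate, the mean of a gene's probesets and leaving out each array.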

Additional observations from a re-analysis of the deposited data

How the results depend on the processing

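No member passed the adjusted threshold under any setting with all 4 arrays, including the fit without the replicate block (0 calls, smallest adjusted p = 0.244), and between 0 and 6 passed with 1 array left out. Fits without an array have no block, and the lone array of a depth is assumed to vary like the other depth. The numbers of members with both deep arrays above and below the shallow arrays were 12 and 25 without the pig 1 shallow array, a setting chosen after seeing the data. With the actin ratio as covariate, in a fit without the block, the ER median was -0.10 and the mitochondrial median -0.07. Because the ratio runs with depth, that fit cannot cleanly separate the ratio from depth. Some differences changed sign, and not all of them were small. Under quantile normalization they were 0.06 for DNAJC3, -0.12 for HSP90AA1 and HSPA9, -0.28 for HSP90AB1, -0.18 for HSP90B1, -0.53 for HSPA5 and -0.07 for PDIA6. With the actin ratio as covariate they were -0.30 for CALR, 0.08 for CANX, 0.10 for DNAJA3, -0.04 for HSP90AA1, -0.20 for HSP90AB1, -0.09 for HSP90B1, -0.13 for PDIA3 and -0.10 for PDIA6. In the main fit CALR, PDIA3 and CANX had differences of 0.40, 0.36 and -0.30. DNAJC3 was 0.07 with arrays centred on their median and 0.08 with the mean of its probesets, where HSPA9 was -0.23. With 1 array left out, DNAJC3 ran between -0.22 and 0.22, HSPA5 between -0.03 and 0.06, HSP90AB1 between -0.18 and 0.21, HSP90B1 between -0.06 and 0.10, DNAJA3 between -0.49 and 0.07, HSPA8 between -0.38 and 0.03, HSPB8 between -0.52 and 0.15 and HSPA9 between -0.01 and 0.13. The cause of these changes was not tested. Each of the 31 named members was recomputed under every alternative. Of these differences 30 changed sign, while 337 kept both their sign and their side of the threshold. The fits without the block, with crossed pairs, without the filter and with a floor of 16 left each of these differences at its printed value, so they say nothing about direction. Probesets near the absent controls, such as HSPB7, have signals too low for their differences to be read.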
